A study of Mus musculus with 8 samples.

Results

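The 45 genes described here carry out or control fatty acid oxidation and the making of ketone bodies, and their mRNA was measured in mouse liver with and without the ubiquitin ligase Brap. They were taken by symbol from the 24451 genes of the liver table, and all 45 were found. The rule itself used no measured value, but the list was chosen with earlier results of these data known. Each of the 45 also passed the filter on low values (at least 5 normalized counts on average), as did 15352 genes in all. By role, 5 belong to the carnitine shuttle and the pyruvate switch, 13 to mitochondrial beta-oxidation, 8 to peroxisomal oxidation, 6 are acyl-CoA thioesterases, 9 serve uptake, binding and activation of fatty acids, and 4 are ketone, aldehyde, pantetheine and regulator genes.

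Livers of 4 Brap LKO mice were compared with livers of 4 Brap F/F mice. Brap LKO mice carried Brap alleles with loxP sites around exons 2 and 3 and an albumin (Alb) Cre transgene, which is used to delete floxed exons in hepatocytes. Alb Cre can also act in bile duct cells, which share embryonic precursors with hepatocytes, and the extent of the deletion in each cell type was not measured here. Brap F/F mice carried the same floxed alleles without Cre, and the labels call them wild type. All were C57BL/6 mice by the labels (C57BL/6J and male by the study's methods), aged 18 weeks and fasted for 6 h, and RNA came from the left lobe. No mice with Cre and without floxed alleles are among the 8 livers, so the transgene and the deletion cannot be told apart.

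Fatty acids enter hepatocytes, are bound by small carrier proteins and are joined to coenzyme A. The acyl groups are then passed on to carnitine for entry into mitochondria, where they are shortened step by step to acetyl-CoA. Peroxisomes shorten the longest chains and hand the products on, and thioesterases split acyl-CoA back to free acid and coenzyme A. In the fasted liver much of the acetyl-CoA is turned into ketone bodies for other organs. Many of these genes are textbook targets of PPAR-alpha, a nuclear receptor that fatty acids activate in fasting.

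Between 26280884 and 33313914 reads per liver fell on genes, and the values below are normalized counts, the reads on a gene divided by the size factor that the authors computed for each liver. Brap itself had 4042, 4203, 4065 and 3641 normalized counts in Brap LKO replicates 1 to 4 and 4410, 4235, 3994 and 4106 in Brap F/F replicates 1 to 4. These counts cover the whole gene, most of which lies outside the deleted exons, so they do not check the labels. Of 9 hepatocyte markers tested, all were read in every liver, with summed levels from 2293090 to 3072700 in Brap LKO and from 2786300 to 3991800 in Brap F/F. These sums mostly follow Alb, with a mean of 1703130 out of 2568880 in Brap LKO and 2441600 out of 3345880 in Brap F/F. In whole liver, fewer cells of a type and less RNA per cell cannot be told apart.

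Brap F/F replicate 4 stood apart from the other control livers in these genes. It was the lowest of the 4 Brap F/F livers in 39 of the 45 genes, against 26.0% of all tested genes, and it lay below all 7 other livers in 20 of them. Its median difference from the mean of the other Brap F/F livers was -0.39 on the log2 scale over the 45 genes and 0.0083 over all tested genes. Its summed hepatocyte markers, at 3221610, lay within the range of the other control livers, and Alb alone made up 2273907 of that sum. Among the controls it had the highest sums of bile duct cell (cholangiocyte) markers, at 2126, and macrophage markers, at 8848. Its sums for stellate cells, at 6359, and sinusoidal endothelium, at 5431, lay within the range of the other controls. The part of the cell mix in its values was not tested. Because this liver stood apart, results are given with and without it. It was singled out by the values of these same genes, so what is found without it is a description of the other 7 livers and not independent evidence.

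**Figure D1:**
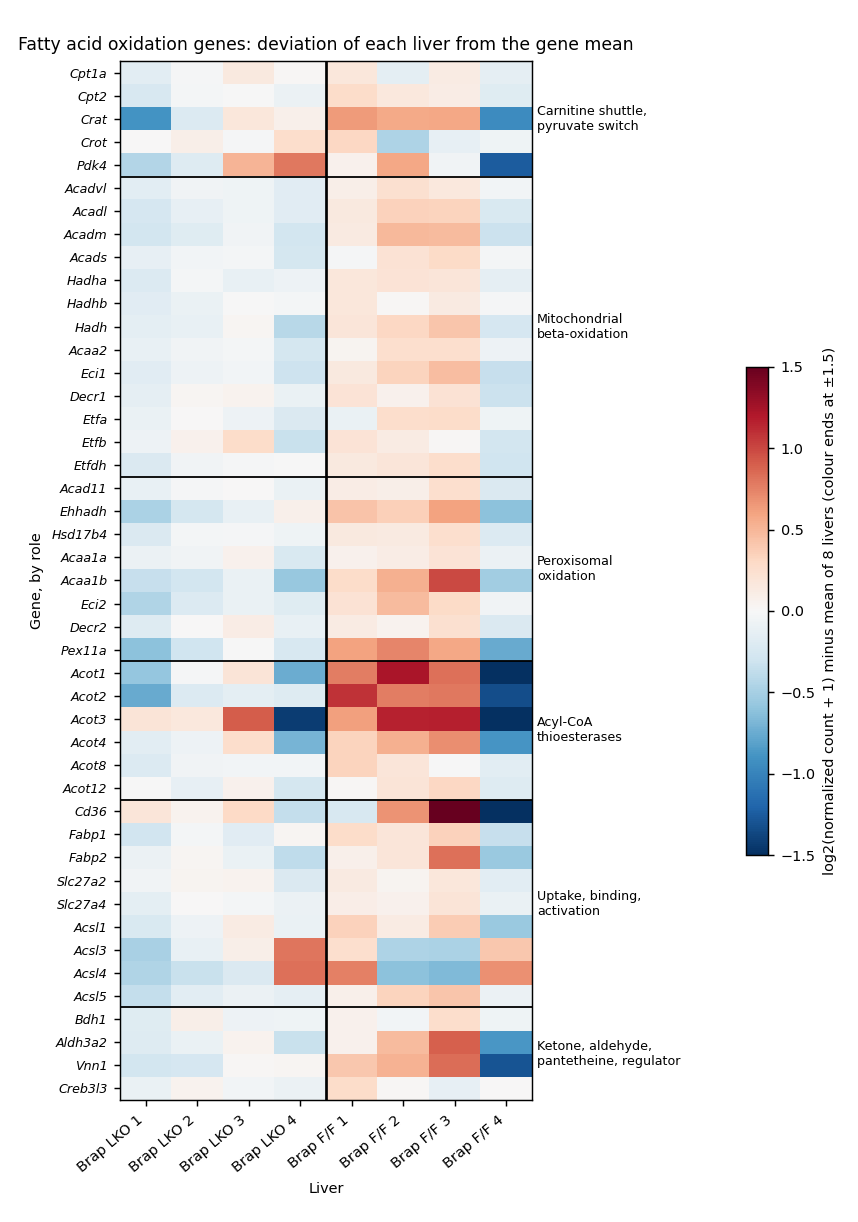
Each row is 1 of the 45 genes, grouped by role, and each column 1 liver. Color gives log2(normalized count + 1) minus the mean of the gene over the 8 livers, with red above and blue below that mean and the scale ending at ±1.5. Brap F/F replicates 1 to 3 are mostly red and Brap F/F replicate 4 is mostly blue, with its lowest values among the thioesterases and in Cd36.

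None of the 45 genes differed between Brap LKO and Brap F/F at an adjusted p under 0.05 by limma, which called 118 of 15352 genes (0.769%), 102 higher and 16 lower in Brap LKO. Fitted values lay below 0 in 41 of the 45 genes (52.0% of all tested genes did), and their median log2 fold change was -0.18, against -0.01 over all genes. At an unadjusted p under 0.05, limma gave 7 genes lower in Brap LKO (background 6.59%) and none higher. These 7 were Acaa1b, Acadl, Acadm, Acads, Acadvl, Acsl5 and Eci2. In 3 genes, Acadvl, Acsl5 and Eci2, every Brap LKO liver lay below every Brap F/F liver, as did 4.39% of all tested genes.

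Count models were run on the recovered reads of all 8 livers. edgeR called none of the 45 genes (0.795% of all genes in either direction), with 8 at an unadjusted p under 0.05 (15.6% of all genes). DESeq2 called 1 gene lower, Eci2, against 1.13% of all genes. The precision differed widely between genes. Standard errors of the log2 fold change ran from 0.07 in Hadhb to 0.85 in Acot3, with a median of 0.13. In 35 of the 45 genes the 95% confidence interval left out a change of 1 on the log2 scale in either direction, and in 21 it lay inside ±0.5.

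The offset of these genes below 0 moved with the scaling of the livers. When each liver was scaled to the same total, the median of all genes moved to 0.15 and that of the 45 genes to -0.03, and 26 of the 45 were below 0, against 21.6% of all genes. The 45 genes lay at -0.17 relative to the median of all genes under both scalings. Rescaling a liver shifts all genes by nearly the same amount, so this difference had to stay and is no further evidence. The signs of small values depended on the choice.

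Without Brap F/F replicate 4, limma called 8 of the 45 genes lower in Brap LKO, against 0.352% of all genes, and none higher. They were Acaa1b, Acadl, Acadm, Acot1, Acot2, Eci2, Pex11a and Vnn1. At an unadjusted p under 0.05 there were 33 lower (background 8.69%), and in 29 the groups did not overlap (8.77%). edgeR then called 4 genes lower (0.267%), namely Acaa1b, Acot2, Pex11a and Vnn1, and DESeq2 called 21 (2.63%). The median log2 fold change of the 45 genes was then -0.28 by limma. Leaving out any other single liver gave 0 calls among the 45 genes by limma, with 2 to 7 of them at an unadjusted p under 0.05, against 10.7% to 16.2% of all genes in those fits.

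**Figure D2:**
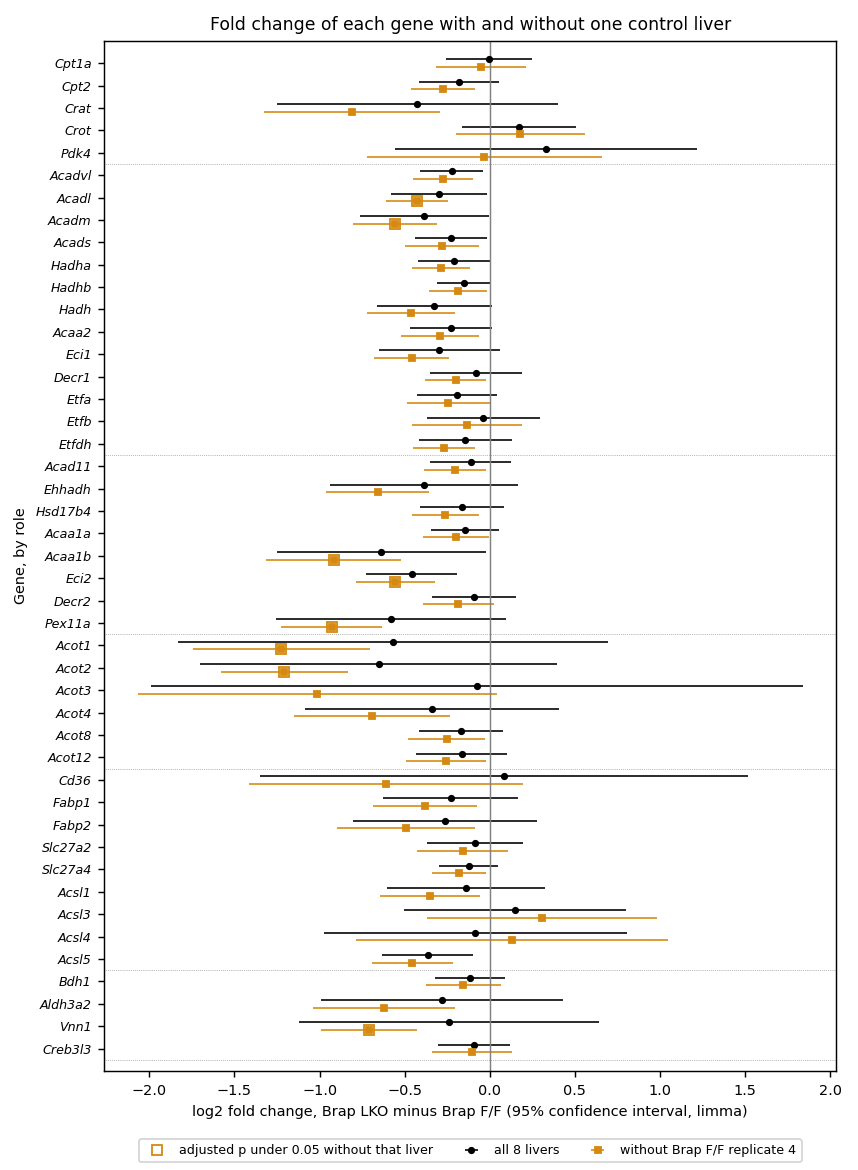
Points are the log2 fold change of each gene, Brap LKO minus Brap F/F, and lines its 95% confidence interval from limma, in black for all 8 livers and in orange without Brap F/F replicate 4. Orange boxes mark the 8 genes with an adjusted p under 0.05 without that liver; with all 8 livers there was none.

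Over all 45 genes the median deviation from the gene means was -0.19, -0.05, -0.01 and -0.13 in Brap LKO replicates 1 to 4. It was 0.17, 0.21 and 0.28 in Brap F/F replicates 1 to 3 and -0.22 in replicate 4. Brap LKO replicate 1 was the lowest of its group in 26 genes (25.2% of all genes) and replicate 4 in 18 (31.3%). Brap LKO replicate 3 was the highest of its group in 29 (24.1%), and Brap F/F replicate 3 the highest control in 26 (24.65%). The gap between Brap F/F replicate 4 and the rest was widest in the thioesterases, where its median deviation was -1.11.

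**Figure D3:**
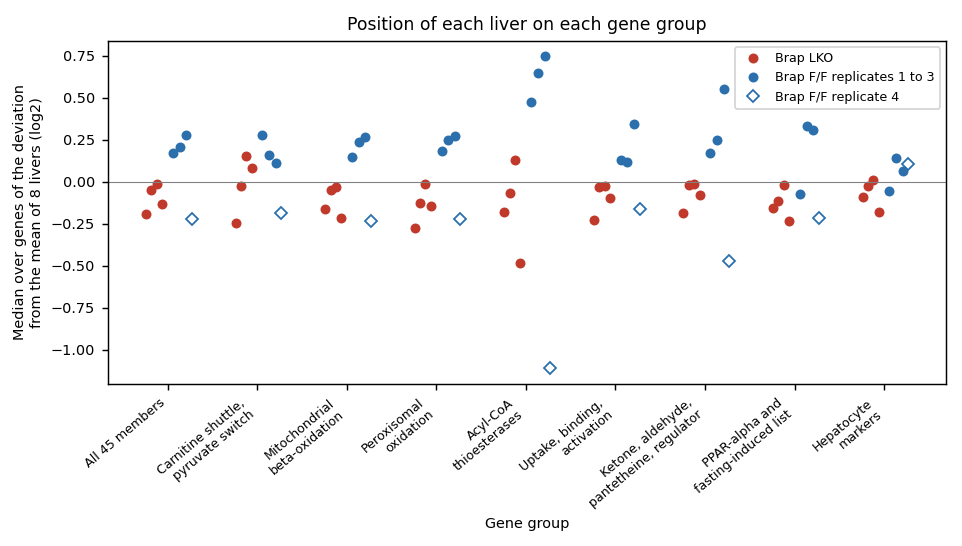
Each point is 1 liver, and its height is the median over the genes of a group of log2(normalized count + 1) minus the mean over 8 livers. Red points are Brap LKO, filled blue points Brap F/F replicates 1 to 3 and the open diamond Brap F/F replicate 4, which is the lowest control point in every group shown but the hepatocyte markers.

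In the carnitine shuttle and pyruvate switch, 3 of 5 genes were below 0 and 2 above, with a median of -0.01 that became 0.15 with the same total per liver, and none passed the test. Cpt1a, the carnitine palmitoyltransferase that controls entry into mitochondria, had 23720, 26078, 29350 and 26659 normalized counts in Brap LKO and 29739, 23915, 28769 and 24038 in Brap F/F. The groups overlapped fully, and the log2 fold change was -0.01 ± 0.11 (SE), with a 95% interval from -0.26 to 0.25 (limma adjusted p = 0.98). Pdk4, the kinase that keeps pyruvate out of the citric acid cycle in fasting, had 143, 170, 277 and 339 in Brap LKO and 204, 292, 188 and 81.4 in Brap F/F. Its highest value was in Brap LKO replicate 4 and its lowest in Brap F/F replicate 4, and its log2 fold change of 0.33 ± 0.39 (limma adjusted p = 0.71) became -0.03 without the latter liver.

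The other genes of this role were Cpt2, Crat and Crot. Cpt2, which returns acyl groups to coenzyme A inside mitochondria, had a log2 fold change of -0.18. Crat, the carnitine acetyltransferase, had 1185 in Brap LKO replicate 1 and 1148 in Brap F/F replicate 4, against 1911 to 2490 in the rest of the Brap LKO livers and 3269 to 3449 in the remaining controls. Without Brap F/F replicate 4 its log2 fold change was -0.81 ± 0.23, which limma did not call (adjusted p = 0.12). Crot, which moves medium-chain acyl groups out of peroxisomes, lay above 0 at 0.17, with the lowest value, 9689, in Brap F/F replicate 2.

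All 13 genes of mitochondrial beta-oxidation were below 0, with a median log2 fold change of -0.22 (9 of 13 and -0.07 with the same total per liver). At an unadjusted p under 0.05 by limma, 4 of them were lower (6.59% of all genes), and none passed the threshold. The 4 were the acyl-CoA dehydrogenases of the first step, which differ in the chain length they take. Acadvl, for very long chains, had 11349, 12248, 12129 and 11272 in Brap LKO and 13514, 14949, 14199 and 12327 in Brap F/F. The groups did not overlap, although the lowest control, replicate 4, was just above the highest knockout (log2 fold change -0.22 ± 0.08, limma adjusted p = 0.24). A two-sided exact permutation test over 70 arrangements gave p = 0.0286 for Acadvl, the smallest it allows. Any gene whose groups do not overlap gets this p, so it only restates the separation. By the same test p was 0.0571 for Acads, 0.114 for Acadl, 0.143 for Acadm and 0.114 for Acaa1b. By annotation 42.9% of the exon bases of Acadvl overlap Dvl2 on the opposite strand, and the use of strand in counting is not given in the sources used here.

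Acadl, for long chains, had 5763, 6307, 6548 and 6105 in Brap LKO and 7591, 8692, 8668 and 5829 in Brap F/F. Brap F/F replicate 4 fell among the Brap LKO livers and the other controls lay above all of them. The log2 fold change was -0.30 ± 0.13 (limma adjusted p = 0.29) with all livers and -0.43 ± 0.08 (limma adjusted p = 0.046) without that liver. Acadm, for medium chains, had 8760, 9344, 10234 and 8754 in Brap LKO and 11593, 14789, 14711 and 8455 in Brap F/F. Here Brap F/F replicate 4 was the lowest of all 8 livers, and the log2 fold change went from -0.38 ± 0.17 (limma adjusted p = 0.31) to -0.56 ± 0.11 (limma adjusted p = 0.049) without it. Acads, for short chains, had 4450, 4686, 4733 and 4020 in Brap LKO and 4778, 5619, 5913 and 4722 in Brap F/F. Its groups were separated except that Brap F/F replicate 4 lay just below Brap LKO replicate 3 (log2 fold change -0.23 ± 0.09, limma adjusted p = 0.29).

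Acaa2, the thiolase that releases acetyl-CoA, was the gene of this role with the most normalized counts per kilobase of transcript. It had 22090, 23172, 23571 and 19898 in Brap LKO and 24639, 28423, 28488 and 22656 in Brap F/F. Again only replicate 4 of the controls reached into the Brap LKO range (log2 fold change -0.23 ± 0.11, limma adjusted p = 0.34). Hadha, the alpha subunit of the trifunctional protein, spanned 11697 to 13217 in Brap LKO and 15160 to 15550 in Brap F/F replicates 1 to 3, with 12288 in replicate 4. The remaining genes, Hadhb, Hadh, Eci1, Decr1, Etfa, Etfb and Etfdh, had log2 fold changes from -0.33 in Hadh, the dehydrogenase for short hydroxyacyl chains, to -0.04 in Etfb. Without Brap F/F replicate 4, 12 of the 13 genes were lower at an unadjusted p under 0.05 by limma (8.69% of all genes). Acadl and Acadm were the 2 past the threshold (0.352% of all genes). The liver left out was the lowest control in 12 of these 13 genes.

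Subunits of the same complex differed in level per length. Etfa and Etfb encode the 2 chains of the electron transfer flavoprotein, and their mean levels were 4587 and 376 normalized counts per kilobase of transcript. Hadha and Hadhb had 3375 and 415 per kilobase. In the annotation, 67.3% of the windows of 50 bases, 1 read length, in the Etfb transcript also occur in transcripts of other genes, mostly in Gm45233, which overlaps Etfb on the same strand. For Hadhb the share is 62.4%, mostly with Gm13910. How reads that match more than 1 gene were counted is not given in the sources used here, so the levels of Etfb and Hadhb are uncertain, and the part of these shared windows in their low levels was not tested.

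All 8 genes of peroxisomal oxidation were below 0 as well, with a median log2 fold change of -0.28 (5 of 8 and -0.12 with the same total per liver) and none past the threshold by limma. Eci2, an isomerase that prepares unsaturated chains for oxidation, had 5136, 6090, 6552 and 6183 in Brap LKO and 8134, 9699, 8525 and 6744 in Brap F/F. Every Brap LKO liver lay below every control, with replicate 4 again the lowest control. Limma gave a log2 fold change of -0.46 ± 0.12, with a 95% interval from -0.73 to -0.19 (adjusted p = 0.11). edgeR gave an adjusted p of 0.12 for Eci2 and DESeq2 one of 0.017. Of the 45 genes it was the only one that any of these 3 tests called with all 8 livers. Eci2 lies at chr13:34977748-35027096 on the minus strand of mm10, with 10 exons in the transcript used for its length. A share of 13.9% of its 50-base windows also occurs in other genes, most of them in Gm16984, which overlaps Eci2 on the opposite strand.

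Acaa1b, a peroxisomal thiolase, had 16225, 17000, 19247 and 13891 in Brap LKO and 24958, 29751, 40671 and 14309 in Brap F/F. The first 3 controls were above all Brap LKO livers, and replicate 4 fell near the lowest of them. Its log2 fold change was -0.64 ± 0.27 (limma adjusted p = 0.30) with all livers and -0.92 ± 0.17 (limma adjusted p = 0.048) without that control. Its paralog Acaa1a spanned 4791 to 5894 in Brap LKO and 5278 to 6461 in Brap F/F, with a log2 fold change of -0.15. The coding sequences share a run of 327 identical bases. The lines that follow show where this run begins, 5′ to 3′ on the coding strand, from coding base 733 to 797 of both GENCODE transcripts. Capitals mark its first 50 bases, the length of 1 read, in which a read cannot tell the 2 genes apart.
Acaa1a: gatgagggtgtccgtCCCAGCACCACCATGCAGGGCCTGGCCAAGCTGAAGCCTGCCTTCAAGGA
Acaa1b: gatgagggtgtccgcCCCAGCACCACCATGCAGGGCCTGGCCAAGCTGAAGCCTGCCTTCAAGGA

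Such shared 50-base windows make up 35.1% of the Acaa1a transcript and 46.2% of the Acaa1b transcript when all other genes are counted. The split of reads between the 2 genes is therefore uncertain.

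Ehhadh, the bifunctional enzyme of the classical peroxisomal pathway, had 7642, 8891, 9879 and 11195 in Brap LKO and 14327, 13664, 16234 and 6959 in Brap F/F. Replicate 4 of the controls was the lowest of all 8 livers and the other 3 controls were the highest. The log2 fold change was -0.39 ± 0.25 (limma adjusted p = 0.46) with all livers and -0.66 ± 0.13 (limma adjusted p = 0.053) without that liver. Pex11a, which drives the division of peroxisomes and is given here because of its values, had 3848, 4784, 5853 and 4985 in Brap LKO and 8956, 9756, 8811 and 3495 in Brap F/F. It moved from -0.58 ± 0.30 (limma adjusted p = 0.38) to -0.93 ± 0.13 (limma adjusted p = 0.019) when replicate 4 was left out. Acad11, Hsd17b4 and Decr2 had smaller values, from -0.16 to -0.10, and replicate 4 was the lowest control in each of the 8 peroxisomal genes.

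**Figure D4:**
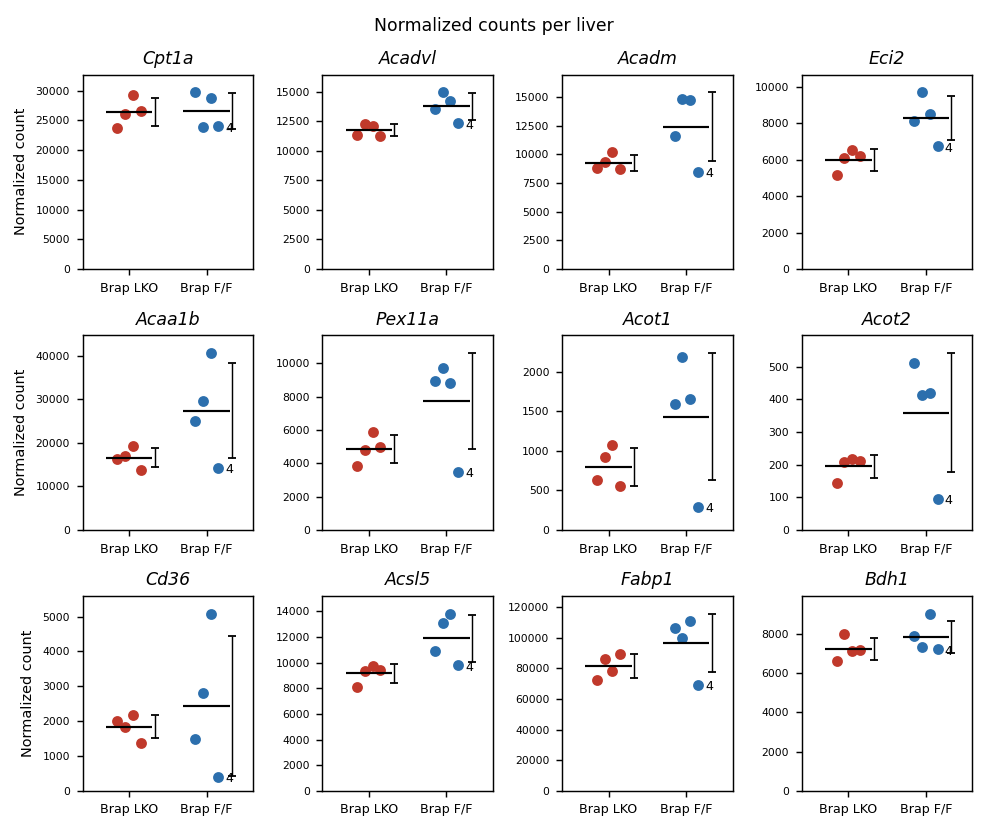
Each panel plots the normalized counts of 1 gene, on an axis that starts at 0, with 1 point per liver, the group mean as a line and the SD as a bar (n = 4 per group). The point marked 4 is Brap F/F replicate 4; in Eci2, Acadvl and Acsl5 all red points lie below all blue points, and in Pex11a, Acot1 and Acot2 only that blue point lies below the red ones.

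The 6 acyl-CoA thioesterases were below 0 with a median of -0.25 (5 of 6 and -0.10 with the same total per liver), and none passed the test with all 8 livers. The median was -0.85 without Brap F/F replicate 4 and -0.65 with the animal series as a covariate. They had the widest spread between livers of any role, with a within-group SD of the median position of 0.64 on the log2 scale, against 0.17 over all 45 genes. Acot12, a cytosolic enzyme that splits acetyl-CoA, had the most normalized counts per kilobase of the 6. It had 6193, 5724, 6521 and 5188 in Brap LKO and 6325, 7104, 7753 and 5441 in Brap F/F, and the groups overlapped (log2 fold change -0.16 ± 0.12, limma adjusted p = 0.52).

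The neighbors Acot1 to Acot4, which lie next to each other on chromosome 12, spread far more, and they are given here because of that spread. Acot1, the cytosolic enzyme for long chains, had 626, 922, 1069 and 557 in Brap LKO and 1586, 2180, 1659 and 290 in Brap F/F. It lies at chr12:84009490-84018371 on the plus strand of mm10, just past Acot2 at chr12:83987861-83993873. Acot2, its mitochondrial counterpart, had 143, 209, 218 and 211 in Brap LKO and 512, 412, 419 and 95.2 in Brap F/F. In both genes the first 3 controls were above, and replicate 4 below, every Brap LKO liver. Acot3 ranged from 316 to 1596 in Brap LKO and from 124 to 1896 in Brap F/F, and Acot4 from 2398 to 4685 and from 2113 to 6324, with the lowest values of both in Brap F/F replicate 4 and the lowest Brap LKO values in replicate 4 of that group.

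With all 8 livers the log2 fold changes were -0.57 ± 0.56 in Acot1 and -0.65 ± 0.47 in Acot2. Without Brap F/F replicate 4 they were -1.22 ± 0.23 (limma adjusted p = 0.046) and -1.21 ± 0.16 (limma adjusted p = 0.017). The pair shares coding sequence, a run of 273 identical bases. Its start is shown here, from coding base 872 to 936 of Acot1 and from 995 to 1059 of Acot2, with the first 50 identical bases in capitals, since a read from that stretch fits both genes.
Acot1: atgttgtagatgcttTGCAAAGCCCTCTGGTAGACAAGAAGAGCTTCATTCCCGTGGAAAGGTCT
Acot2: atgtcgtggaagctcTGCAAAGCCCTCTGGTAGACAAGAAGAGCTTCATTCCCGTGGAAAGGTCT

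Of the 50-base windows of Acot1, 33.6% occur in other genes, and of those of Acot2, 27.7%, so their separate levels are uncertain. In Acot3, 20.6% of the exon bases overlap Gm49366 on the same strand.

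Among the 9 genes of uptake, binding and activation, 7 were below 0 and 2 above, with a median of -0.13, which turned to 0.03 with the same total per liver. Fabp1, the main fatty acid binding protein of hepatocytes, had the most normalized counts per kilobase of the 45 genes, with a mean of 161004, far above Slc27a2 in second place with 21610. Its counts were 72125, 85977, 77922 and 89604 in Brap LKO and 106404, 99725, 111182 and 69343 in Brap F/F. The first 3 controls exceeded every Brap LKO liver and replicate 4 was the lowest of all 8. By limma its log2 fold change was -0.23 ± 0.18 (adjusted p = 0.55) with all livers and -0.38 ± 0.13 (limma adjusted p = 0.18) without replicate 4.

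PPAR-alpha binds with its partner to direct repeats of the site AGGTCA with 1 base between them. Promoters from RefSeq (GRCm38.p6, 250 bases before to 50 after the start) were searched on both strands for AGGNCANAGGNCA, which allows 1 free base in each repeat. It occurred in 125 of 32851 promoters (0.381%). Of the 45 genes, 40 were matched to a promoter, and 1, Fabp1, held it. The stricter AGGTCANAGGTCA was found in 13 promoters (0.0396%) and in none of the 40 genes. The Fabp1 match is shown because Fabp1 is the gene with the highest level and a textbook target of the receptor. It lies on the strand opposite to the gene, starts 67 bases before the start site, and is in capitals in the window chr6:71199788-71199847 of the plus strand.
Fabp1: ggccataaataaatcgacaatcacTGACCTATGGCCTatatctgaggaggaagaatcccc

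A match to these letters describes the sequence and does not show binding.

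Cd36, a fatty acid uptake protein of the cell surface, had 2001, 1826, 2164 and 1376 in Brap LKO and 1498, 2805, 5078 and 403 in Brap F/F. The Brap LKO livers lay close together within the range of the controls, whose highest value was 12.6 times the lowest. The log2 fold change was 0.08 ± 0.64, with a 95% interval from -1.35 to 1.52 (limma adjusted p = 0.96), and the sign differed by method, with -0.40 by edgeR and -0.61 by limma without Brap F/F replicate 4. Cfd, a marker of adipocytes, had its highest value, 696, in Brap F/F replicate 3 and its lowest, 4.91, in replicate 4, the same livers as Cd36. Fabp4, the other tested marker of the list, did not follow this order, with 247 and 233 in Brap F/F replicates 1 and 2 and 166 and 167 in replicates 3 and 4. The defining adipocyte gene Adipoq had no read in 6 of the 8 livers and at most 4.21 normalized counts, and Plin1 none in 5. The part of fat cells in the Cd36 values was not tested.

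Acsl5, which joins fatty acids to coenzyme A, had 8122, 9333, 9729 and 9460 in Brap LKO and 10913, 13058, 13803 and 9788 in Brap F/F. The groups did not overlap, by a narrow margin between Brap LKO replicate 3 and Brap F/F replicate 4 (log2 fold change -0.37 ± 0.12, limma adjusted p = 0.19). Acsl5 lies at chr19:55251938-55297720 on the plus strand and Acadvl at chr11:70010183-70015411 on the minus strand of mm10. The exact permutation test gave Acsl5 its smallest p of 0.0286, two-sided, as for any gene whose groups do not overlap. Acsl1, the main ligase of liver, spanned 48463 to 61761 in Brap LKO and 61589 to 73861 in Brap F/F replicates 1 to 3, with 38449 in replicate 4. Of the exon bases of Acsl5, 8.31% overlap Zdhhc6 on the opposite strand.

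Acsl3 and Acsl4 differed from the rest of the role in their pattern over the livers. Acsl4, which prefers polyunsaturated acids, had 2239, 2440, 2635 and 5457 in Brap LKO and 5175, 2009, 1941 and 4927 in Brap F/F. It was high in Brap LKO replicate 4 and in Brap F/F replicates 1 and 4, and low in the other 5 livers. Acsl3 had its 3 highest values, 1242, 847 and 940, in the same 3 livers. Limma called neither Acsl4 (log2 fold change -0.08, limma adjusted p = 0.93) nor Acsl3 (0.15, limma adjusted p = 0.83). Fabp5, another fatty acid binding protein, was also highest in these livers, at 1042, 364 and 912, and these genes are given because of that pattern. The remaining genes, Fabp2, Slc27a2 and Slc27a4, had log2 fold changes from -0.26 to -0.09.

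The 4 ketone, aldehyde, pantetheine and regulator genes had a median log2 fold change of -0.18 (-0.02 with the same total per liver), and none passed the test. The median was -0.39 without Brap F/F replicate 4, when Vnn1 was called, and -0.04 without Brap F/F replicate 3. Bdh1, which turns the ketone body acetoacetate into another ketone body, had 6651, 7999, 7153 and 7177 in Brap LKO and 7879, 7338, 9030 and 7226 in Brap F/F. The groups overlapped, with a log2 fold change of -0.12 ± 0.09 and a 95% interval from -0.32 to 0.09 (limma adjusted p = 0.56). Creb3l3, a membrane-bound transcription factor of the fasting liver, had 11900, 13296, 12401 and 12010 in Brap LKO and 15433, 12975, 11779 and 12868 in Brap F/F. Its groups overlapped as well (log2 fold change -0.09 ± 0.09, limma adjusted p = 0.66), and replicate 4 was not the lowest control. Scaled to the same total, Bdh1 and Creb3l3 had log2 fold changes of 0.04 and 0.07.

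Vnn1, the pantetheinase that recycles the coenzyme A precursor and is given for its values, had 1498, 1521, 1829 and 1851 in Brap LKO and 2406, 2610, 3231 and 740 in Brap F/F. Replicate 4 of the controls had less than any other liver, and the other controls more than every Brap LKO liver. The log2 fold change was -0.24 ± 0.39 with all livers and -0.71 ± 0.12 (limma adjusted p = 0.037) without that liver. Aldh3a2, which oxidizes fatty aldehydes, behaved alike, with 7718 in Brap F/F replicate 4, 14846 to 26429 in the other controls and 11241 to 14769 in Brap LKO.

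**Figure D5:**
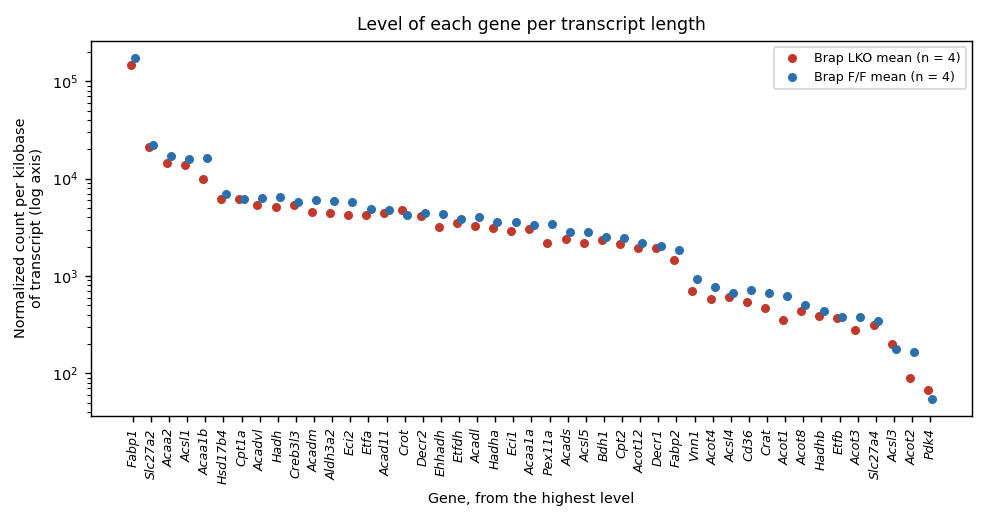
Mean normalized counts per kilobase of transcript (log axis) of the 45 genes, ordered from the highest, in Brap LKO (red) and Brap F/F (blue), each the mean of 4 livers. Levels run from 161004 in Fabp1 to 60.8 in Pdk4 as means of all 8 livers, and in most genes the red point lies slightly below the blue one.

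Of 45 further genes of fatty acid oxidation and ketone metabolism, 43 were tested, 29 lay below 0 and 14 above, with a median log2 fold change of -0.14 (19 below 0 and a median of 0.02 with the same total per liver). None was called by limma, and 6 were lower at an unadjusted p under 0.05 (6.59% of all genes were). Slc25a20 was called lower without Brap F/F replicate 4. It encodes the carnitine carrier of the inner mitochondrial membrane. In 3 of the 43 genes, Acox2, Dbi and Acacb, the unadjusted p was under 0.01. Acox2, the oxidase that starts the shortening of branched chains in peroxisomes, had a mean of 7042 ± 267 (SD) in Brap LKO and 8543 ± 678 in Brap F/F (log2 fold change -0.28 ± 0.08, limma adjusted p = 0.14). Dbi, an acyl-CoA carrier, had 10901 ± 956 and 13563 ± 852 (-0.32 ± 0.09, limma adjusted p = 0.14). Acacb makes the malonyl-CoA that inhibits Cpt1a, and had 3374 ± 529 and 5356 ± 1240 (-0.65 ± 0.17, limma adjusted p = 0.11). In each of the 3 genes every Brap LKO liver lay below every control, as in 4.39% of all genes, with n = 4 per group.

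Among 25 genes of PPAR-alpha, its partners and the fasting response, 20 were below 0, with a median of -0.22 (14 and -0.06 with the same total per liver). Limma called none, with 1, Angptl4, lower at an unadjusted p under 0.05 (6.59% of all genes). Its groups did not overlap (4.39% of all genes, lower), and its log2 fold change was -0.34 ± 0.11 (limma adjusted p = 0.18). Leaving out Brap F/F replicate 4 gave a median of -0.30 over the 25 genes, and 2 of them, Cyp4a10 and Cyp4a14, were called lower (0.352% of all genes). Summed over all 25 genes, levels ran from 194660 to 247845 in Brap LKO and from 241384 to 425865 in Brap F/F. Ppara itself had a mean of 7419 ± 264 (SD, n = 4) in Brap LKO and 7625 ± 1231 in Brap F/F, with a log2 fold change of -0.03 (limma adjusted p = 0.92). Cyp4a14, a fatty acid omega-hydroxylase chosen after its values were seen, had 1323, 2007, 3462 and 3965 in Brap LKO and 9235, 45700, 31815 and 707 in Brap F/F. Cyp4a10, of the same family, had 4977, 5755, 9884 and 6146 in Brap LKO and 16491, 22299, 17690 and 1951 in Brap F/F. In both, the lowest of all 8 livers was Brap F/F replicate 4 and the other 3 controls were the highest. The log2 fold changes were -2.01 ± 1.13 and -0.72 ± 0.68 (limma adjusted p = 0.41 and 0.63).

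Markers of other liver cells lay mostly above 0, on the other side from most of the 45 genes. All 7 cholangiocyte markers lay above 0, with a median log2 fold change of 0.95 and summed levels from 1909 to 3751 in Brap LKO and from 1130 to 2126 in Brap F/F. Cftr was called, and it had no read in 1 control liver. All 10 macrophage markers (median 0.47), all 7 markers of sinusoidal endothelium (median 0.26) and 8 of 9 markers of stellate cells and fibroblasts (median 0.39) were above 0, and of these limma called only Pdgfrb. The endothelial median was 0.13 without Brap F/F replicate 4, with 1 of 7 markers below 0, and Col1a1 was called beside Pdgfrb and Cftr. With the same total per liver limma called Cftr and Pdgfrb again, and also Ccr2 of macrophages and Col1a2 of stellate cells. That fit called 459 of 15352 genes higher, against 102 in the main fit, and only 21.6% of all genes lay below 0 in it. Summed levels were 6321 to 11546 against 6344 to 8848 for macrophages, 5932 to 8802 against 5124 to 7708 for endothelium, and 7617 to 11937 against 5016 to 8870 for stellate cells. Of the 9 hepatocyte markers, 6 lay below 0, with a median of -0.10 that became 0.06 with the same total per liver. No marker of these lists other than Cftr was at 0 in any liver. The part of a changed mix of cells in the values of the 45 genes was not tested.

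By the animal numbers in the labels, Brap LKO replicates 1 to 3 and Brap F/F replicate 1 form a lower series and the other 4 livers a higher one. Each series holds 1 liver of one group, so no comparison within a series was made. With the series as a covariate, limma called 0 of the 45 genes, their median log2 fold change was -0.24, and 41 of 45 lay below 0.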

How the data were processed

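The authors made mRNA libraries (NuGEN Universal Plus), read 50 bases from a single end and used STAR 2.6.0c for alignment to mm10. The counting tool, annotation release and use of strand are not given in the sources used here. The deposited signal holds gene-level read numbers divided by the size factor of the liver from DESeq2. All values (100%, within 0.001) were whole multiples of the value of 1 read, so reads were recovered. Columns holding the authors' own DESeq2 comparison (mean, log2 fold change, its error, p-value, adjusted p-value and fold change) were not used, and 0 columns came from other samples.

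Groups were compared by limma 3.58.1 in R 4.3.3 (with a trend of variance on level). Values entered as log2 after adding 1 to the normalized count, for the 15352 genes that averaged at least 5, with Benjamini-Hochberg adjustment over all of them and a threshold of 0.05. The paper's test, DESeq2, needs counts, so DESeq2 1.42.0 and edgeR 4.0.16 (quasi-likelihood) on recovered reads were alternatives. The others were pseudocounts of 0.5 and 5, a filter at a mean of 20 and none at all, the same total per liver, TMM factors, a replicate block, a covariate for the animal series and each liver left out. After the data were seen, edgeR, DESeq2 and the same total were also run without Brap F/F replicate 4. The fit was tested on simulated data. Each liver has its own animal number in the labels, so p-values measure the spread between animals. Depth was 26280884 to 33313914 reads per liver.

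Members and lists were chosen with earlier results of these data known. Members given for every liver are those with an unadjusted p under 0.05 or groups that do not overlap, the member with the most counts per kilobase in each role, and Cpt1a, Acadm, Ehhadh, Bdh1, Cd36 and Pdk4. Others are named as chosen after their values were seen. Of the further lists, genes with an unadjusted p under 0.01 are given, and Angptl4 as the gene under 0.05 in the list of PPAR-alpha and the fasting response. Positions, lengths and shared windows came from GENCODE M21 and promoters from RefSeq. Python 3.11.15, numpy 2.4.6, pandas 2.3.3 and matplotlib 3.10.9 were used for permutation tests, summaries and plots.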

Additional observations from a re-analysis of the deposited data

Results flagged for a closer look

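Each of the 45 genes was examined in both groups for a liver far from the other 3. By Dixon's criterion, 6 of 90 groups of 4 held such a liver, where chance gives about 1 in 20, or 4.5. In Brap F/F replicate 4, Crat had 1148 normalized counts against 3269 in the nearest control, Hadha 12288 against 15160, and Pex11a 3495 against 8811. In Brap LKO replicate 1, Acot2 had 143 against 209 in the nearest Brap LKO liver and Acot8 had 465 against 516. In Brap LKO replicate 4, Acsl4 had 5457 against 2635.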

How the results depend on the processing

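Whether any of the 45 genes was called depended on 1 control liver and on the test. Limma called 0 with all livers and 0 to 8 with each liver left out, 8 of them without Brap F/F replicate 4 (0.352% of all genes, lower). DESeq2 called 1 lower with all livers (1.13% of all genes). Without that control liver edgeR called 4 lower (0.267%), DESeq2 21 (2.63%) and limma with the same total 6 (38 of 15352 genes). No setting called one of the 45 genes higher.

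Over all genes, limma called 102 higher, against 459 with the same total per liver and 455 by DESeq2, and 11 to 178 with each liver left out, the lowest without Brap LKO replicate 1 and the highest without Brap F/F replicate 4. Without that control, DESeq2 gave 555 and the same total 499. It called 16 lower, against 9 with a minimum mean of 20, 170 by DESeq2, and 4 to 54 with each liver left out. Without Brap F/F replicate 4, edgeR gave 41, DESeq2 395 and the same total 38.

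The median log2 fold change of the uptake, binding and activation genes was -0.13, and -0.35 to -0.050 with each liver left out, the first without Brap F/F replicate 4 (-0.34 by edgeR and -0.35 by DESeq2 without it). The median of the 45 genes was -0.28 without that liver. For the thioesterases the median was -0.25, against -0.85 without that liver, -0.65 with the animal series as a covariate, -0.41 by edgeR and -0.43 by DESeq2, and for the ketone, aldehyde, pantetheine and regulator genes it was -0.18, against -0.39 without that liver and -0.04 without Brap F/F replicate 3. The median of the carnitine shuttle and pyruvate switch lay between -0.06 and 0.15 and changed sign with the scaling and with livers left out.

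The main fit did not pair livers by replicate number. Correlations of same-numbered livers ran from -0.13 to 0.29. They were not set against those of livers with different numbers, so they cannot decide whether the numbers pair the livers. With the replicate block, 0 of the 45 genes were called, 12 had an unadjusted p under 0.05 (16.9% of all genes did) and their median stayed at -0.18, with 80 genes higher and 15 lower in all.

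Signs that turned belong to genes with intervals across 0. With the same total per liver 26 of the 45 genes lay below 0, against 41 in the main fit. The genes named here are among those given for every liver and are not all that turned. Cpt1a moved from -0.01 to 0.15 with the same total per liver (0.11 also without Brap F/F replicate 4), 0.0096 with TMM factors, 0.0044 by edgeR, and between -0.057 and 0.050 with each liver left out. Pdk4 lay at 0.33, and from -0.033 (without Brap F/F replicate 4) to 0.58 with each liver left out. Cd36 moved from 0.08 to -0.40 by edgeR, -0.41 by DESeq2 and -0.00026 without Brap LKO replicate 3, and reached 0.61 without Brap F/F replicate 3. Without Brap F/F replicate 4 it was -0.61 by limma, -0.75 by edgeR, -0.76 by DESeq2 and -0.45 with the same total. With the same total, Bdh1 was 0.041 and Creb3l3 0.066 (0.0098 and 0.062 without that control). The cause of these shifts was not tested beyond the settings named. With 4 livers per group, 10 of the 45 intervals include a change of 1 on the log2 scale, so changes of that size were not excluded there.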
